A study of Homo sapiens with 26 samples.

Results

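The regions described are long stretches of the genome that the adenine methyltransferase Dam seldom marked in single KBM7 cells. KBM7 is a human leukaemia line with a nearly haploid genome, and all 26 cells analysed were of clone 5-8, labelled 1N and carrying Dam that was not fused to another protein (1 group, DamOnly_1N). Every cell had received 0.5 nM Shield1 for 15 h and was sorted from the smallest 2% of cells positive for both Fucci cell cycle markers, so there is no untreated, unsorted or second-clone sample to set beside them. Lamin B1 stands in the series title, but the design text and each sample's label give Dam only, which is what is assumed here. Each value is the observed signal of a 100 kb bin (build hg19) divided by the signal expected there.

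A block was a run of 10 or more adjacent autosomal bins, each with a ratio above 0 in at least 1 cell and a ratio of 1 or more in at most 5 of the 26 cells. The derivatives 9:22 and 22:9 of the translocation that KBM7 carries counted as autosomes. By this rule 148 blocks were found, with 2206 bins or 220.6 Mb, out of 24858 used autosomal bins. Of all used autosomal bins, 32.8% met the limit of 5 cells and 8.87% lay inside blocks, so that 27.0% of the bins at the limit belonged to a block and the other 5955 stood in shorter runs. The members were selected on the ratios of these same 26 cells, so low levels inside blocks follow from the rule and are given as a description without any test. "Inaccessible" would be a reading of the ratio, and the blocks are called here by what was measured.

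Dam methylates adenine within the sequence GATC, and methylated sites are cut by DpnI, ligated to adapters and amplified. Unfused Dam reaches open chromatin more readily than compact chromatin, and large gene-poor regions are often compact and replicated late. Such regions frequently hold very long genes of neurons and cell adhesion, which most blood cells do not use.

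The sequence of the blocks was not used here, since no genome of the build of the files was at hand. Upstream sequence of 4 genes in the longest blocks is shown instead, because GATC is the only sequence Dam can mark. SI (sucrase-isomaltase, a gut enzyme), SLITRK3 (a synaptic adhesion protein) and BCHE (butyrylcholinesterase) lie in the longest block, and PCDH17 (a protocadherin) lies in the longest block of chromosome 13. The 250 bases before each gene's start are from RefSeq in GRCh38.p14, another build than the ratios, at chr3:165078497-165078746 (minus strand, SI), chr3:165197110-165197359 (minus strand, SLITRK3), chr3:165837424-165837673 (minus strand, BCHE) and chr13:57631494-57631743 (plus strand, PCDH17). They are written 5′ to 3′ on the strand of the gene, with GATC in capitals.
SI: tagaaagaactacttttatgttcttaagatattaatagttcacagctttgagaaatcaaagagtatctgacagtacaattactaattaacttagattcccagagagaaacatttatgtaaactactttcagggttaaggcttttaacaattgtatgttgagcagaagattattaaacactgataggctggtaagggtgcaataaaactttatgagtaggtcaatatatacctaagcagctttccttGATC
SLITRK3: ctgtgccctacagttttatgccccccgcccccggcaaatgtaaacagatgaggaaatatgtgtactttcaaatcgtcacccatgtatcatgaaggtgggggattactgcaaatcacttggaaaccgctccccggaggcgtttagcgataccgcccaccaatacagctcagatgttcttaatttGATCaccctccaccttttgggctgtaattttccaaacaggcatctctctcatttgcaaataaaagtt
BCHE: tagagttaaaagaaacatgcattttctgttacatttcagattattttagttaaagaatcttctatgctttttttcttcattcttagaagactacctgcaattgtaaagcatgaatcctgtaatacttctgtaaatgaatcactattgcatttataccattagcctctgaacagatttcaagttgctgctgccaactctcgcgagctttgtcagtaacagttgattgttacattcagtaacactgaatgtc
PCDH17: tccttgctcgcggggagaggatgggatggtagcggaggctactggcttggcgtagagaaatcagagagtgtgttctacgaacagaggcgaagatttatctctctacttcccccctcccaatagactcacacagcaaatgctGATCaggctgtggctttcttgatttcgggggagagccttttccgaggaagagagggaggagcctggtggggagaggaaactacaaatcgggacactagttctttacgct
SI, SLITRK3 and PCDH17 each have 1 GATC in this window, and these letters are not in the window of BCHE. GATC reads the same on both strands. Of 37 named genes with at least 50% of their span in blocks, 33 had a promoter in the RefSeq table, and 14 of these windows (42.4%) held GATC, against 8 of 19 housekeeping windows (42.1%), 34.0% of 15843 protein-coding windows and 35.8% of all 27305. The median GC content of the windows was 49.2% for the 33 genes and 62.4% for all protein-coding genes. A window of 250 bases is a small part of a 100 kb bin, and the ratios do not resolve it.

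Most blocks were little longer than the minimum. Their median length was 14 bins (1.4 Mb), and 19 of 148 spanned 20 bins or more, holding 487 bins. There were 21 runs of exactly 10 bins, just inside the rule, with a mean level of 0.376, and 37 runs of 9 bins, just outside it, with 0.370. Level here and below is the mean ratio divided by the cell's own mean over all used autosomal bins. Across the whole genome 2934 runs of bins at the limit were counted, and their median length was 1 bin.

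The longest block lay on chromosome 3 at 162400001 to 166900000 and spanned 45 bins (4.5 Mb). Its level in single cells ran from 0.0278 to 0.859 with a median of 0.264, and averaged 0.295 ± 0.162 (SD, n = 26 cells). The highest value was that of cell 22, followed by 0.666 in cell 5, and no cell reached the genome mean. Of its 45 bins, 5 were at 1 or more in no cell at all.

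**Figure D1:**
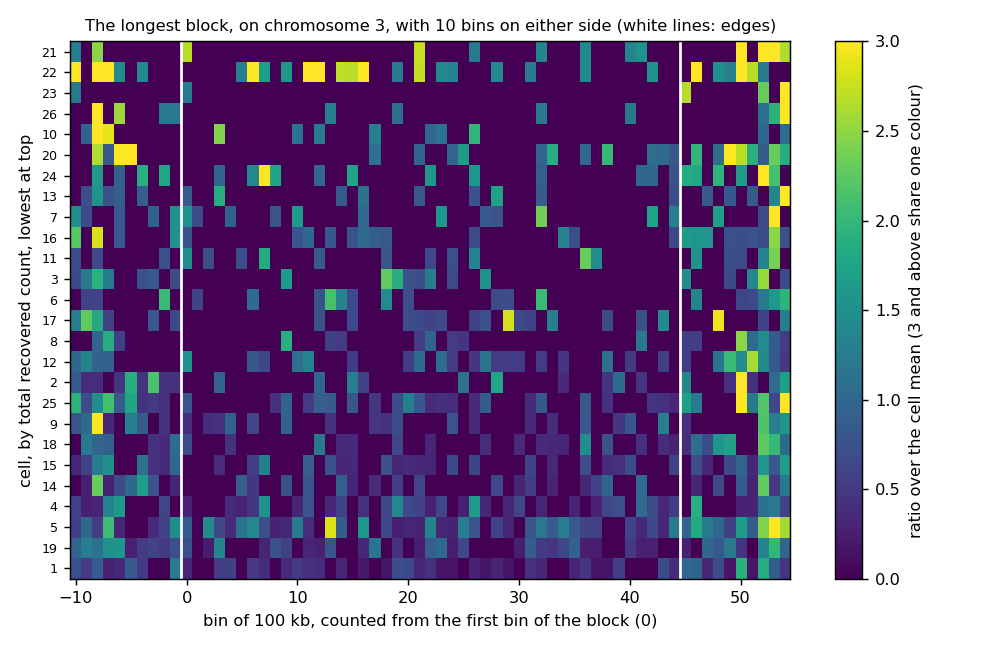
Ratio over the cell mean in each 100 kb bin (x axis) and each cell (y axis, cells of lowest total count at the top) for the 45 bins of the longest block and 10 bins on either side; white lines mark its edges and values of 3 and above share one colour. Inside the lines most squares are dark in every cell, and cell 22, the cell of highest level there at 0.859, has several bright squares toward the low-coordinate side.

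The next in length were on chromosome 1 at 79200001 to 82600000 (34 bins), chromosome 10 at 55400001 to 58700000 (33 bins), chromosome 11 at 23900001 to 27100000 (32 bins) and chromosome 2 at 76000001 to 79100000 (31 bins). Their levels were 0.350 ± 0.178 on chromosome 1, 0.363 ± 0.294 on chromosome 10, 0.315 ± 0.126 on chromosome 11 and 0.302 ± 0.122 on chromosome 2 (SD, n = 26). The wider spread on chromosome 10 came with a single cell, cell 22 at 1.68, where the second highest cell was at 0.552. In the blocks on chromosomes 11 and 2 the highest cells were at 0.572 and 0.575, well below the genome mean.

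Chromosome 13 at 56200001 to 59000000 followed with 28 bins and a level of 0.298 ± 0.118. Chromosome 11 at 96900001 to 99400000 and chromosome 18 at 26100001 to 28600000 had 25 bins each, at 0.352 ± 0.176 and 0.322 ± 0.103. Chromosome 4 at 65400001 to 67700000 had 23 bins, at 0.284 ± 0.137. Length rank 10 was shared by 5 blocks of 22 bins, 2 of them on chromosome 4 and 1 each on chromosomes 10, 12 and 9:22, with levels between 0.279 and 0.371. In 9 of these 14 longest blocks no cell reached a level of 1, and in the other 5 the cell that did was cell 22.

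None of the 3 lowest levels was in the 10 longest blocks. Chromosome 4 at 90900001 to 92100000 (12 bins) had 0.262 ± 0.186, with 4 cells at 0. Chromosome 5 at 18800001 to 20300000 (15 bins) had 0.262 ± 0.155, and chromosome 4 at 131000001 to 133000000 (20 bins) had 0.265 ± 0.196. The spread between cells is wider than the distance of these blocks from one another and from the longest block, so their order is not firm.

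The highest levels were on chromosome 7 at 46100001 to 47100000 (0.487 ± 0.422), chromosome 7 at 18400001 to 19700000 (0.483 ± 0.526) and chromosome 3 at 110000001 to 111000000 (0.474 ± 0.497). In all 3 the highest cell was cell 22, at 2.29, 2.93 and 2.81. The mean of the other 25 cells was 0.415, 0.385 and 0.381 there.

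Blocks were unevenly spread over the chromosomes. Chromosome 4, a gene-poor chromosome, held 23 blocks with 352 bins, 18.8% of its used bins. Chromosome 21 had 14.7% of its bins inside 4 blocks, chromosome 3 14.0% inside 17, chromosome 13 13.8% inside 9 and chromosome 5 12.1% inside 16. Chromosomes 2, 3, 4 and 5 together held 72 of the 148 blocks and 49.2% of the block bins, with 32.0% of the used bins. Blocks were found on 19 of the 21 chromosomes and derivatives with values. Chromosome 19 and 22:9 had none, and chromosomes 16 and 20 had 1 each, covering 1.95% and 1.68% of their bins.

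**Figure D2:**
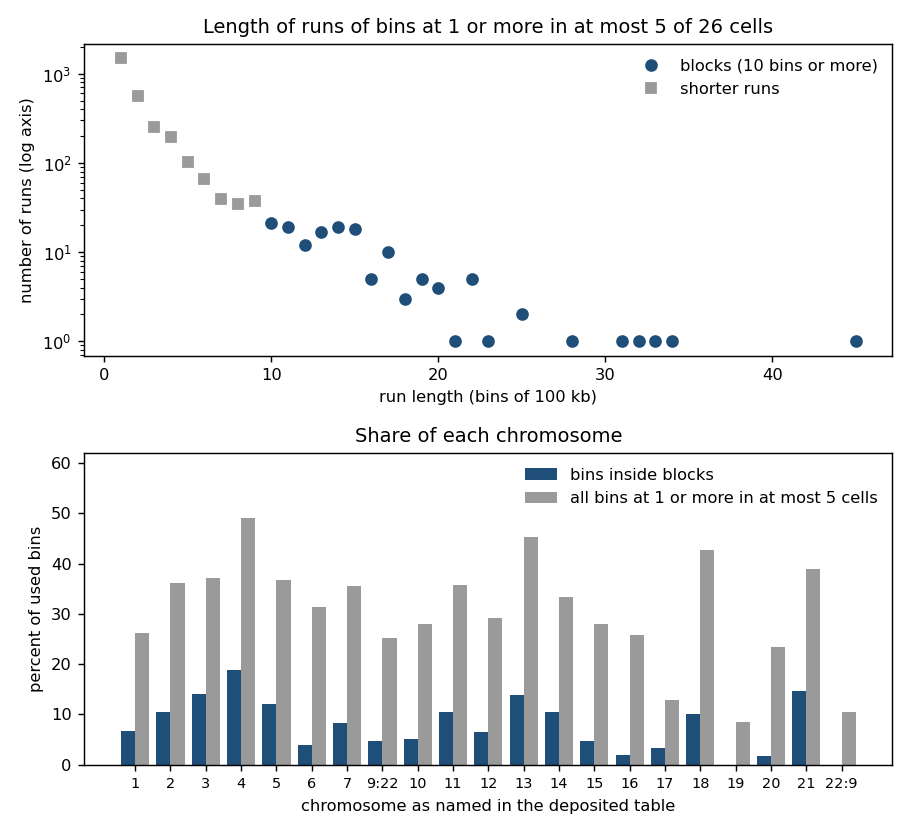
Top, number of runs (log axis) of each length in 100 kb bins, blue for blocks and grey for runs under 10 bins. Bottom, percent of used bins of each chromosome inside blocks (blue) and percent at 1 or more in at most 5 cells in runs of any length (grey). Both are highest on chromosome 4, with 18.8% inside blocks, and chromosome 19 has no blue bar.

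The share inside blocks broadly went with the share of bins at the limit, with departures on some chromosomes. Chromosome 4 was highest in both, with 49.0% of bins at the limit. Chromosome 19 and 22:9, without blocks, had the lowest shares at the limit, 8.59% and 10.5%. On chromosome 6, 31.3% of bins met the limit and 4.00% lay inside blocks (12.8% of the bins at the limit), whereas on chromosome 3 it was 37.2% and 14.0% (37.6% of them). On chromosome 18, 42.8% of bins met the limit and 10.1% lay inside blocks. On every chromosome the smaller part of the low bins stood in unbroken runs of 10 or more, at most 38.3% (chromosome 4). On chromosomes 16 and 20 that part was 7.58% and 7.14%, below that of chromosome 6.

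The longest block of each remaining chromosome was shorter. It had 19 bins on chromosome 5 at 84000001 to 85900000, 17 on chromosome 6 at 114400001 to 116100000, 15 on chromosome 16 at 60400001 to 61900000, 15 on chromosome 17 (50400001 to 51900000) and likewise 15 on chromosome 21 (19300001 to 20800000). On chromosome 7 it was 14 bins (3 blocks), on chromosome 14 17 bins (2 blocks, at 40900001 to 42600000 and 45900001 to 47600000), 13 bins on chromosome 15 (46700001 to 48000000) and 10 bins on chromosome 20 (6200001 to 7200000). The levels of these blocks lay between 0.292 and 0.454.

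Blocks were rare near chromosome ends. Inside the terminal 5 Mb of chromosomes 0.433% of used bins (8 of 1849) were in blocks, against 9.55% in the interiors, while bins at the limit made up 22.4% of the ends and 33.7% of the interiors. A single block came within 5 Mb of an end, 4.2 Mb away at its nearest. Within 5 Mb of the longest stretch without values on the chromosome, which usually holds the centromere, there were 8 blocks, and the median distance was 35.9 Mb. On chromosomes 13, 14, 15 and 21 the distance was taken from the first bin with a value instead. The share of all used bins within 5 Mb was not computed.

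Some neighbouring blocks were parted by a single bin. There were 19 such pairs, and joining them left 129 stretches. On chromosome 4, 3 blocks with 60 bins in all ran over 6.2 Mb at 58800001 to 65000000, parted by 2 single bins that were each at 1 or more in 7 cells. With up to 5 parting bins allowed, the stretch reached 67700000 and 8.9 Mb with 4 blocks.

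Inside blocks the number of cells with a ratio of 1 or more was usually well below the limit. It was 0 cells in 113 bins, 1 in 324, 2 in 536, 3 in 526, 4 in 419 and 5 in 288. The mean was 2.76 cells per bin inside blocks, 3.47 in shorter runs and 10.1 in all bins outside blocks. The 288 block bins at 5 cells, just inside the limit, had a mean level of 0.493. The 1789 autosomal bins at 6 cells, just outside it, had 0.630. Bins at 5 cells in shorter runs are not in the first value, so the sets differ in more than the number of cells.

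The level was lower inside blocks than outside in each of the 26 cells, which the rule favours. Cell means inside blocks ran from 0.192 in cell 23 to 0.658 in cell 22 with a median of 0.344, against 1.03 to 1.08 outside with a median of 1.06. The mean was 0.339 ± 0.0878 inside and 1.06 ± 0.00855 outside (SD, n = 26), a mean log2 ratio of -1.69 ± 0.37. Cell 22 had the smallest contrast with a log2 ratio of -0.65, and cell 23 the largest with -2.49. Low bins in shorter runs were between the extremes at 0.490 ± 0.0932. Summed over all cells, blocks held 43113 recovered counts and a level of 0.358, with an exact 95% Poisson interval from 0.355 to 0.361 that covers counting error only, against 1376492 counts and 1.06 outside. The level inside blocks was thus low and not nil.

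The median recovered expectation per bin, in units of the smallest one, was 298 inside blocks and 321 outside. For bins with counts in few cells it is a lower bound, and such bins are more frequent inside blocks. GATC density, GC content and DNA copy number over the blocks were not analysed, and their part in the level was not tested.

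Most edges were shallow. Of 296 edges, 2 faced a bin at 0 in all cells and none faced a bin without a value. The first outside bin of the other 294 was at 1 or more in 6 cells at 132 edges and in 7 cells at 81, or in 6 or 7 cells at 72.4%. It was at 10 cells or more at 23 edges and at 13 cells or more, that is in at least as many cells as not, at 8. This bin fails the rule by construction.

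The profile across edges changed slowly on either side of it. The last bin inside had a level of 0.370 ± 0.102 and the fifth inside 0.331 ± 0.0817 (SD, n = 26 cells). The first outside was at 0.663 ± 0.150, the second outside at 0.535 ± 0.0916, the tenth at 0.665 ± 0.117 and the twentieth, 2 Mb away, at 0.762 ± 0.0864, all still below the genome mean. At the second bin outside, 12.9% of positions were already inside another block, at the tenth 21.8% and at the twentieth 13.7%. Part of the outside profile is thus that of other blocks. A single bin that parts neighbouring blocks is the first outside bin of the edges on either side of it. The nearest bin at 1 or more in 13 cells was a median of 1.6 Mb from an edge, and the nearest at 21 cells a median of 6.1 Mb.

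**Figure D3:**
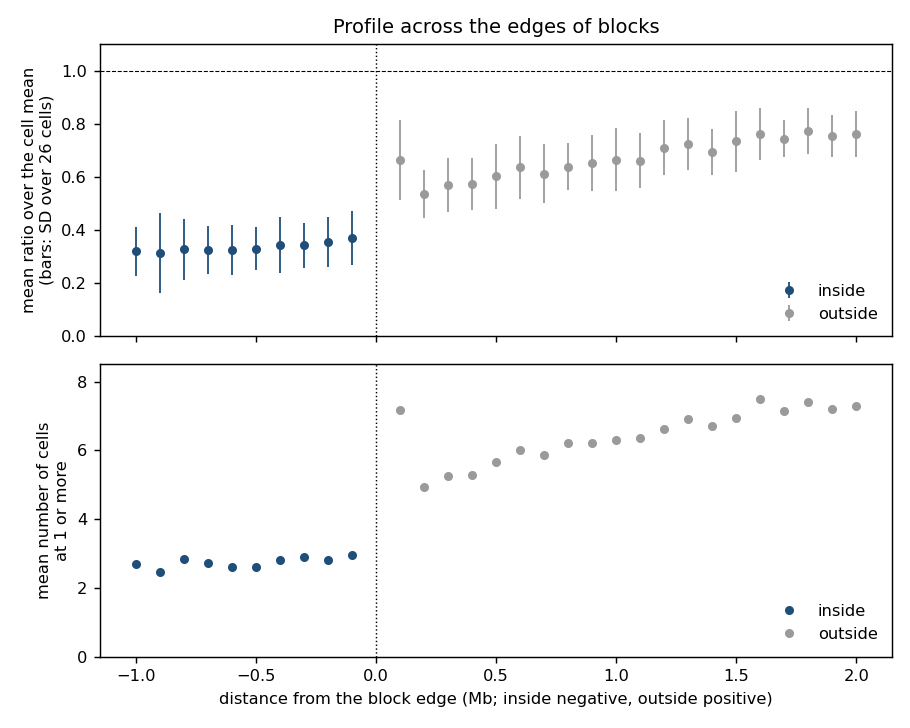
Top, mean ratio over the cell mean by distance from the block edge in Mb, inside (blue, negative) and outside (grey, positive), with bars for the SD over 26 cells; bottom, the mean number of cells at 1 or more. The level steps up at the first outside bin, which the rule sets, drops back to 0.535 and then climbs to 0.762 at 2 Mb.

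At the 8 edges that faced a bin at 13 cells or more, the step in level varied. On chromosome 2 the block at 184100001 to 185400000 was bounded by a bin at 1 or more in 15 cells, with a level of 1.58 ± 2.21, beside a last inside bin at 0.332. On chromosome 12 the block at 40500001 to 41600000 was bounded by a bin at 15 cells and 1.26 ± 1.07, beside 0.336 inside. On chromosome 6 the block at 97900001 to 99300000 ended beside a bin at 13 cells and 1.67 ± 1.91, beside 0.329 inside. These 3 were singled out after their values were seen, and the SD over cells is above the level in the bins on chromosomes 2 and 6 and close below it on chromosome 12. The step was not large at all 8. Beside the block on chromosome 3 at 175800001 to 176800000 the level went from 0.809 inside to 0.965 ± 0.813 outside.

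Genes were placed on the bins from general knowledge of hg19, to the nearest 0.1 Mb, since an annotation of that build was not used here. The placements were typed after the list of blocks had been seen, and the genes of the longest blocks named below were picked because they lie there. All 106 placed genes were on the same chromosome in the RefSeq table of GRCh38.p14, all 352 pairs compared stood in the same order, and 98 had a length within 0.2 Mb of that table. Genes on chromosome 9 were read as positions on 9:22 and are less certain.

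Of 56 very long neuronal and adhesion genes, 24 touched a block, 6 with their whole span, and 18 had at least 50% of it inside. In all 30.7% of their 610 bins were block bins, beside 8.87% of all autosomal bins. The median level over the 56 was 0.473, between 0.214 and 0.880, so that none reached the genome mean. Both extremes, SEMA3D and NEGR1, were among the 32 genes that touched no block. Low levels were thus not limited to genes in blocks: SEMA3E at 0.249, PCDH9 at 0.354 and SOX5 at 0.368 were also outside. Whole inside were PCDH15 (a protocadherin of inner ear hair cells, 0.333 ± 0.136), ERBB4 (a neuregulin receptor, 0.377 ± 0.284), LRFN5 (a synaptic adhesion protein, 0.282 ± 0.264), ADGRL2 (a latrophilin, 0.343 ± 0.188), LUZP2 (0.354 ± 0.331) and BRINP3 (0.323 ± 0.457; SD, n = 26 each).

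Several others were cut by an edge. ROBO2, an axon guidance receptor, had 94.1% of its bins in 2 blocks and a level of 0.297 ± 0.144, and its neighbour ROBO1 58.3% in 1 block and 0.392 ± 0.303. CADM2, a cell adhesion gene, had 90.9% in the block on chromosome 3 at 85100001 to 87000000 and 0.342 ± 0.230. CCSER1 had 73.3% inside the block of lowest level on chromosome 4 and 0.264 ± 0.135. The lipoprotein receptor gene LRP1B had 52.6% inside and 0.503 ± 0.359.

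Some long genes had low levels with a small part inside a block. PTPRD, a receptor phosphatase gene read on 9:22, had 26.1% inside and a level of 0.359 ± 0.121, and CNTNAP2, one of the longest human genes, had 21.7% inside and 0.486 ± 0.227.

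Of 17 cadherin, protocadherin and SLITRK genes, 7 had at least 50% of their span inside blocks, 5 of them whole. These 5 were CDH18 (0.259 ± 0.223), CDH9 (0.306 ± 0.607), SLITRK3 (0.244 ± 0.322), SLITRK5 (0.366 ± 0.639) and PCDH17 (0.463 ± 0.513), whose upstream sequence is printed above. CDH12 had 90.9% inside with 0.355 ± 0.212 and CDH8 50.0% with 0.444 ± 0.283. In all 43.4% of the 53 bins of this list were block bins, beside 8.87% of all autosomal bins. CDH9, SLITRK3, SLITRK5 and PCDH17 rest on 1 or 2 bins each, and their SD was above the mean. The source of this spread was not tested. The other 10 genes of the list touched no block, and their levels ran from 0.321 for CDH19 to 0.947 for CDH20. Some of these, such as SLITRK1 at 0.335 and SLITRK6 at 0.407, were as low as genes inside blocks.

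No block held any of 21 housekeeping genes, which span 41 bins, beside 8.87% of all autosomal bins inside blocks. Of these genes 20 had no bin at the limit, which 32.8% of all autosomal bins met. Their median level was 2.20, from 0.862 for SDHA, a subunit of succinate dehydrogenase, to 3.80 for ACTB, which encodes beta-actin, and their bins were at 1 or more in a median of 19.5 cells. These counts describe the lists, which were drawn up with earlier results of these cells known.

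Other genes in the longest blocks have varied roles. The block on chromosome 3 held SI at 0.326 ± 0.509 and BCHE at 0.222 ± 0.348, each resting on 1 bin. That on chromosome 2 held the synaptic gene LRRTM4 at 0.274 ± 0.220, and that on chromosome 4 the ephrin receptor gene EPHA5 at 0.316 ± 0.290. On chromosome 1 the bin of ADGRL4, an adhesion receptor of endothelium, was at 1 or more in 2 cells. On chromosome 11 ANO3 was at 0.277 ± 0.294 and the lactate transporter gene SLC5A12 at 0.387 ± 0.413. On chromosome 12 the block at 86000001 to 88200000 held the neuropeptide gene NTS at 0.388 ± 0.809, RASSF9 at 0.571 ± 0.907 and MGAT4C at 0.336 ± 0.361. NTS and RASSF9 rest on 2 bins each. ADGRL3, a latrophilin, spanned the single bin between 2 blocks of chromosome 4, with 80.0% inside. ZWINT, which encodes a kinetochore protein used by dividing cells, lay in the block on chromosome 10 at 0.470 ± 0.772.

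The limit allows up to 5 cells per bin at a ratio of 1 or more, and cells used this allowance unequally. On average 10.6% ± 4.44 of block bins were at 1 or more in a cell (SD, n = 26), against 38.9% ± 3.05 outside. The highest shares inside were 23.8% in cell 22, 18.9% in cell 21 and 17.0% in cell 17. The lowest were 3.85% in cell 1, 5.08% in cell 14 and 5.39% in cell 19. Outside blocks cell 22 had the lowest share of all, 30.9%.

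**Figure D4:**
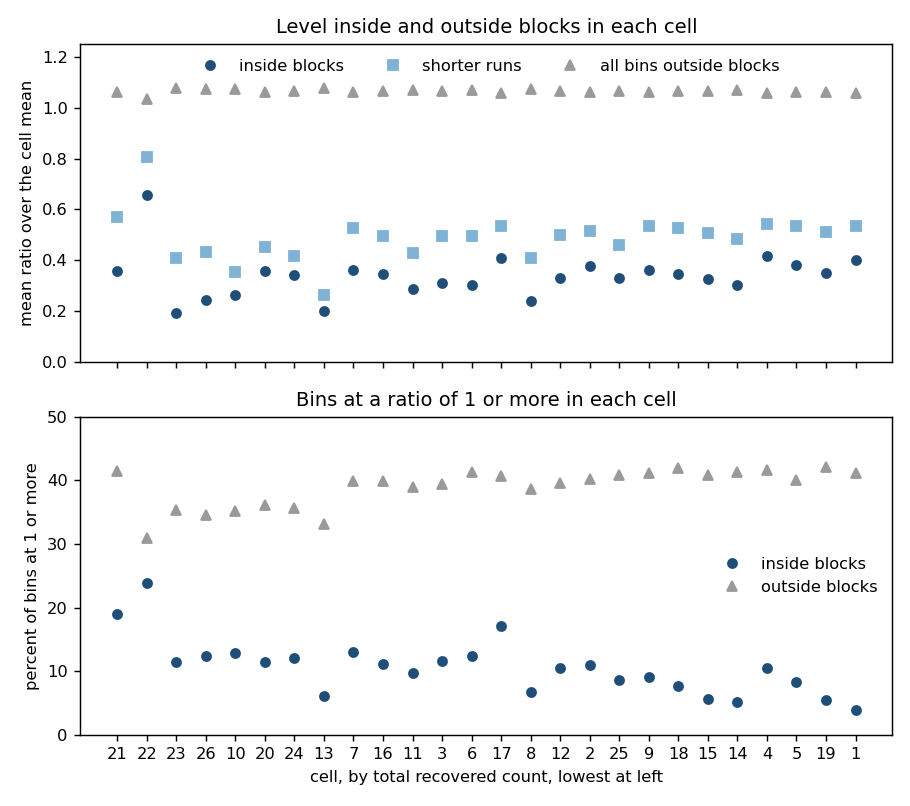
Cells in order of total recovered count, lowest at left. Top, mean ratio over the cell mean inside blocks (blue circles), in shorter runs (light squares) and outside blocks (grey triangles); bottom, percent of bins at a ratio of 1 or more inside (circles) and outside (triangles). Cell 22 has the highest level inside blocks, 0.658, and the share inside is lowest, 3.85%, in cell 1, the deepest.

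Depth moved with the share, and not in the same way with the level. Totals ran from 20182 counts in cell 21 to 178941 in cell 1, or 0.778 to 6.89 counts per used autosomal bin. Across the 26 cells the share of block bins at 1 or more and log10 of the total had a Pearson r of -0.72 and a Spearman rho of -0.76, and r was -0.66 without the 2 cells farthest from the median total and -0.72 without cell 22. The mean level inside blocks did not go the same way, with r 0.12 and rho 0.30 over the 26 cells, r 0.05 without the 2 cells farthest from the median total, and r 0.52 and rho 0.46 without cell 22. The ratio and the total of a cell come from the same counts, and in cells of about 1 count per bin a single count can reach a ratio of 1. In cells 10, 21, 22, 23 and 26 between 45.5% and 76.9% of the breaking bins held 1 count, and in no other cell over 14.2%.

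Equal depth raised the share in deep cells. With every cell thinned to 20000 counts, block bins at 1 or more made up 23.8% in cell 22 and between 11.4% and 25.5% in the other 25, and cell 22 was no longer the highest. At this depth nearly every block bin with a count was at 1 or more: bins above 0 made up 24.1% in cell 22. Outside blocks cell 22 stayed lowest, with 34.5% of bins above 0 against 38.3% to 50.1% in the other 25. The rule itself leans on depth: applied to the thinned cells it found 6 blocks with 75 bins.

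Whole blocks were broken by few cells. Of 3848 pairs of a block and a cell, 55 (1.43%) had a block level of 1 or more. Cell 22 made up 36 of them, and the other 19 were spread over 11 cells, with at most 4 in one cell. In 96 blocks no cell reached 1, in 49 a single cell did and in 3 blocks a pair of cells did. In 14 cells no block reached 1.

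Cell 22 differed in the size of these values too. It had 10 blocks at a level of 2 or more and no other cell had any, the highest elsewhere being 1.67 in cell 20, on chromosome 5 at 98600001 to 99600000, from 11 counts. Its highest was 3.13 on chromosome 10 at 82700001 to 83800000 from 26 counts in 11 bins, where the mean of the other cells was 0.336. On chromosome 2 at 153800001 to 155200000 it reached 3.01 from 33 counts, with 13 of 14 bins at 1 or more in one unbroken run, the longest in any cell and block. On chromosome 5 at 84000001 to 85900000 it was at 2.21 with a run of 10 bins.

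**Figure D5:**
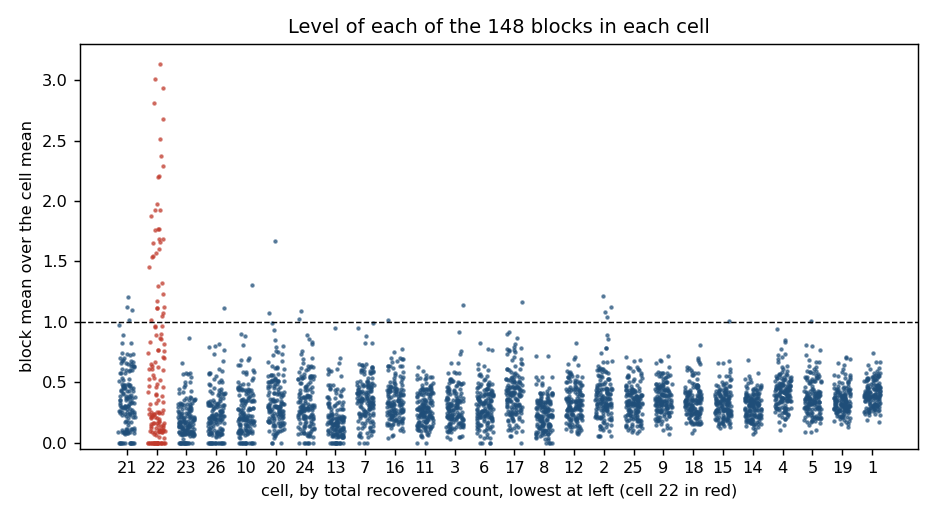
Level of each of the 148 blocks (points) in each cell, cells in order of total recovered count, with the dashed line at the genome mean of the cell and cell 22 in red. In cell 22 the points spread between 0 and 3.13, and in the other cells the highest point is at 1.67.

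In the same cell 25 blocks held no count at all, against at most 18 in any other cell. Thinned to 20000 counts it had 28 such blocks and the others 4 to 29, so this was not particular to cell 22. Its breaking bins came in runs of 1.84 bins on average, against 1.05 to 1.30 in the other cells. At 20000 counts per cell it still had 35 blocks at 1 or more, where the other cells had 0 to 4, and 5.49% of its counts inside blocks, where the others had 1.63% to 3.65%. Without cell 22 the mean level inside blocks was 0.326 ± 0.0603 (n = 25 cells). Whether this cell differed in cycle stage, copy number or amplification was not tested.

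The 3 blocks with a pair of cells at 1 or more were that on chromosome 10 at 82700001 to 83800000 (cell 22 at 3.13 and cell 16 at 1.02), the one of chromosome 3 spanning 93900001 to 95400000 (cell 22 at 2.68 and cell 21 at 1.01) and the one of chromosome 6 spanning 78500001 to 79500000 (cell 22 at 1.54 and cell 3 at 1.14). In cells 2 and 21, the next after cell 22, 4 blocks each reached 1, the highest at 1.21 in cell 2 and 1.20 in cell 21.

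Blocks varied together across cells to a small degree. The mean Pearson r between 2 blocks over the 26 cells was 0.227 for the 71 pairs on one chromosome with centres within 5 Mb, 0.133 for 779 farther pairs on one chromosome and 0.111 for 10028 pairs on different chromosomes. Without cell 22 the values were 0.210, 0.174 and 0.123. All pairs share the same 26 libraries and their depths, and the correlations are weak and given as a description.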

How the data were processed

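Single-cell DamID ratios of 26 KBM7 cells were used. The submitters' processing notes name cutadapt, Bowtie2 2.1.0 and build hg19. The deposited values are linear ratios per 100 kb bin, read as observed over expected from the name of the table. Nothing is stated of read counting, the masking of bins or the expectation: not given in the sources used here. Of 30376 bins, 3792 had no value in any cell, among them chromosome 8, and 253 were 0 in all cells, which left 26331 used bins (24858 autosomal).

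Within a bin the ratios were whole multiples of a step, so whole counts and a relative expectation were recovered, none farther than 2.49e-13 from a whole number. Totals, from 20182 to 178941 counts per cell, limit the precision of single bins, and PCR copies may be included. Levels are ratios over the cell's mean over used autosomal bins.

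The blocks, gene lists and alternatives were chosen with earlier results of these data known. Named were the 10 longest blocks with ties, the longest per chromosome, the 3 lowest and 3 highest by level, the 3 broken by most cells, the one with the longest run at 1 or more, list genes in blocks, known genes in the longest blocks, and the 3 highest and 3 lowest cells by share of block bins at 1 or more; of the list genes partly inside, examples are given, and some are not reported here. No p-value was computed, since the values chose the members and all cells are of 1 clone. The block finder and count recovery were run on simulated Poisson counts with low blocks planted in an otherwise flat genome. This setting is simpler than the data, so it checks the code and not the blocks found. Python 3.11.15 with numpy 2.4.6, pandas 2.3.3 and matplotlib 3.10.9 was used.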

Additional observations from a re-analysis of the deposited data

How the results depend on the processing

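The number of blocks depends on the rule and on depth. At a value of 0.5 no block was left (0 blocks, 0 bins) and at 2 there were 500 with 13574 bins. With at most 4 cells there were 68 (900 bins) and with at most 6 cells 229 (3943 bins), and 3 and 30 long neuronal genes and 4 and 13 cadherin and SLITRK genes had at least 50% of their span inside. With runs of 15 or more there were 60 blocks (1156 bins), with 11 and 4 such genes, and with runs of 8 or more 13 cadherin and SLITRK genes. Without the 6 cells of lowest coverage and with at most 4 cells there were 3332 bins. Thinning to 20000 counts left 6 blocks (75 bins) and moved the share of block bins at 1 or more to 19.4%; that share was 26.4% at 0.5 or more and 2.20% at 2 or more. Leaving out each cell in turn, with the limit kept at 5 cells, which can only add bins, gave 154 to 179 blocks and 2333 to 2881 bins, the most without cell 22. The median over the bins of a block gave a level of 0.134. Of 116 values recomputed, 92 stayed within the spread between cells or, for counts, within 1.5 times, and 24 moved. The counts with each cell left out are among the 92 and all stayed, with cell 22 counted more than once. They weight the tally toward values that stayed, so it does not measure how stable the blocks are. Leaving each cell out, joining blocks, the thinned share of bins above 0, and gene positions moved by 0.1 Mb were added after the data were seen. No paired analysis was possible because all 26 cells form 1 group.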
